A study of Mus musculus with 14 samples.

Results

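Genes of mature dendritic cells were examined in bulk RNA-seq of 14 CT26 tumors from 11 mice, with the chemokine genes Ccl17 and Ccl22 at the centre. The 10 genes were Ccl17, Ccl22, Ccr7, Ccr4, Fscn1, Lamp3, Cd83, Relb, Cd209a, and Socs2, and were found by symbol among the 53801 Ensembl genes of each tumor. CT26 is a line of colon carcinoma cells from the Balb/c strain, and 250000 barcoded cells were transplanted under the skin of each flank of female mice aged 6 to 8 weeks, which have an intact immune system. From day 7, mice received 200 μg of control IgG or of an anti-PD-1 antibody into the peritoneum every 3 days, 5 times in all, and tumors were taken 3 days later. There were 5 control IgG tumors (4 mice), 5 anti-PD-1 responders (4 mice), and 4 anti-PD-1 non-responders (3 mice). All 14 tumors came from the same transplanted cell line, and response was assigned from the final tumor size relative to the control IgG cohort, so that gene expression was measured at the end of treatment and in whole tumors. Tumors 14L and 14R (control IgG), 30L and 30R (responders), and 33L and 33R (non-responders) grew on the left and right flank of 1 mouse each, as read from their numbers.

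Dendritic cells take up antigen in tissue and, once activated, mature: they raise costimulatory molecules, gain the chemokine receptor CCR7, and travel along CCL19 and CCL21 to the T cell areas of lymph nodes. CCL17 and CCL22 are chemokines made by mature and type 2 dendritic cells and by some macrophages, and both bind CCR4, a receptor of regulatory T cells, type 2 helper T cells, and skin-homing T cells. In tumors, mature dendritic cells rich in immunoregulatory molecules are often recognised by Ccr7, Fscn1, Lamp3, Cd83, Relb, Ccl22, and Socs2. In bulk tumor RNA a change in the number of such cells and a change in their RNA content cannot be told apart.

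Ccl22 and Ccl17 are neighbours on mouse chromosome 8. In mm10, Ccl22 (ENSMUSG00000031779) spans chr8:94745590-94751699 and Ccl17 (ENSMUSG00000031780) spans chr8:94810453-94812036, both on the plus strand and 58753 bases apart, with Cx3cl1, the fractalkine gene, between them at chr8:94772009-94782427. The 250 bases before the RefSeq start of each gene (GRCm38.p6, plus strand, chr8:94810203-94810452 for Ccl17 and chr8:94745434-94745683 for Ccl22) are shown because responders and non-responders did not overlap in the levels of either chemokine gene. Capitals mark matches to TTCNNNGAA or TTCNNNNGAA, the spaced sites to which STAT5 and STAT6 proteins can bind.
Ccl17: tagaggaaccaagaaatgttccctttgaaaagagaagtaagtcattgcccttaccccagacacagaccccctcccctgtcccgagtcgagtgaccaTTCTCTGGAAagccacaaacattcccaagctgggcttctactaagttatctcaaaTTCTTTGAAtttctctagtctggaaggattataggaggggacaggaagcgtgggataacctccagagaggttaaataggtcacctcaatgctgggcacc
Ccl22: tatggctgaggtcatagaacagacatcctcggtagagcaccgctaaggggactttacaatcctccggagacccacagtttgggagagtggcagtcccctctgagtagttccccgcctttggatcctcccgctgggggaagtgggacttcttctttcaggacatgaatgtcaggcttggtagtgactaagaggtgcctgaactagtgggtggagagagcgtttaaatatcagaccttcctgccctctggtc
The Ccl17 window held 1 match to TTCNNNNGAA, TTCTCTGGAA, 154 to 145 bases before the start, and 1 match to TTCNNNGAA, TTCTTTGAA, 99 to 91 bases before it. The Ccl22 window held neither, nor did those of Ccr4, Fscn1, and Cd209a, while that of Lamp3 held 1 match to TTCNNNGAA, TTCCTGGAA. Each pattern reads the same on both strands, and they were present in 5.85% and 7.02% of all 32851 mouse windows of this length. The third pattern searched, GGGANTTTCC on either strand, a form of the NF-kB site, was in 0.356% of all windows and in none of the 6 genes of this group that were in the table (Ccl17, Ccl22, Ccr4, Fscn1, Lamp3, and Cd209a).

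The totals of expected counts, the number of fragments assigned to genes by RSEM, were between 33237744 and 48481461 per tumor, so that 3 counts corresponded to at most 0.0903 CPM (counts scaled to a common library size, here with TMM factors). Fragments were longer in non-responders (mean lengths per tumor of 276.5 to 286.8 bases) than in responders (268.5 to 276.0), and these ranges do not overlap. RNA of skin and muscle varied within every group. The summed level of 10 epidermis genes was 8.17 to 761 CPM in control IgG tumors, 146 to 318 in non-responders, and 13.3 to 1038 in responders. For 8 skeletal muscle genes it was 124 to 1327 CPM in control IgG tumors, 91.4 to 787 in non-responders, and 25.5 to 442 in responders. The highest of these sums were in 14R, 33R, and 24L. None of the epidermis or muscle genes passed the test in any comparison. No mature dendritic cell gene was measured apart from the tumor as a whole, and the 6 markers of conventional dendritic cells (Flt3, Zbtb46, Itgax, Dpp4, Kmo, and Cd24a) summed to 25.7 to 36.1 CPM in control IgG tumors, 21.8 to 29.2 in non-responders, and 29.9 to 42.3 in responders.

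Of the 10 genes, 8 had enough counts for the test across 16287 genes (edgeR's quasi-likelihood test with Benjamini-Hochberg adjustment over all of them). Ccl17, Ccl22, and Ccr7 were higher in responders than in non-responders, with 3 of 10 genes called higher and 0 lower, where 5.08% of all genes tested were called higher and 9.90% in either direction. Against control IgG tumors, Ccl17, Ccr7, and Cd209a were higher in responders, again 3 of 10, where 7.88% of all genes were called higher. Ccl17 entered the test through the responders: the filter required 0.242 CPM in 4 tumors, which all 5 responders, 1 control IgG tumor, and 0 non-responders had, so the count of called genes is given as a description. The 5 responders lay above all non-responders for 4 of the 8 genes, Ccl17, Ccl22, Ccr7, and Cd209a, as they did for 6.80% of all genes tested, and above all control IgG tumors for 2, Ccl17 and Cd209a, as for 8.34%. Ccr4 and Lamp3 did not pass the filter and are described by their values.

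**Figure D1:**
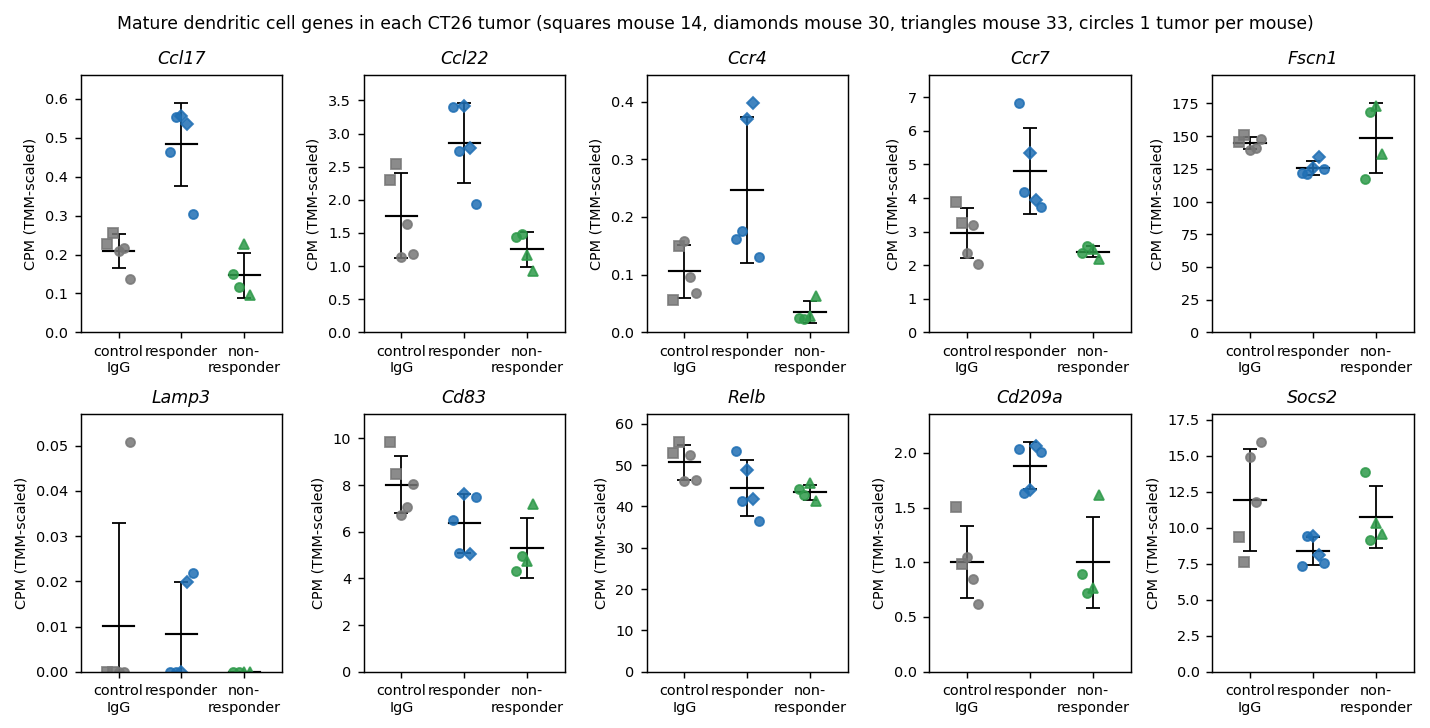
Expression of the 10 genes in each tumor, in TMM-scaled CPM on linear axes from 0 (y axis), by group (x axis); points are tumors, with shapes for the 3 mice that gave both flanks, and bars give the mean ± SD. Responders lie above every non-responder for Ccl17, Ccl22, Ccr4, Ccr7, and Cd209a, and groups overlap for the other 5 genes in that comparison.

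Levels of the 10 genes differed widely within a tumor. The TPM scale divides by effective length, the gene length less the fragment length. On it, the mean over 14 tumors was 87.4 for Fscn1 and 28.5 for Relb, and these ranks held in all 14 tumors. Socs2 followed at 7.20 TPM, Cd83 at 3.70, and Ccr7 at 2.42. Ccl17 (1.46 TPM), Cd209a (1.40), and Ccl22 (1.24) did not differ beyond their spread, since Ccl17 was above Cd209a in 7 of 14 tumors and Cd209a above Ccl22 in 9 of 14. Ccr4 had 0.0793 TPM and Lamp3 0.00286. Fscn1 and Relb are made by many cell types, including cultured carcinoma cells, and Lamp3 was close to absent.

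Ccl17, which encodes a chemokine that attracts CCR4-bearing T cells, had the largest difference between responders and non-responders of the 8 genes tested. In responders Ccl17 was at 0.463 CPM in 24L, 0.554 in 26R, 0.555 in 30L, 0.536 in 30R, and 0.305 in 35L. In non-responders it was at 0.149 CPM in 29L, 0.116 in 32R, 0.227 in 33L, and 0.0950 in 33R. Control IgG tumors had 0.227 CPM in 14L, 0.256 in 14R, 0.210 in 16R, 0.217 in 17R, and 0.137 in 20R. Every responder was therefore above every other tumor, with 35L the lowest of them. The mean was 0.483 ± 0.106 CPM in responders (SD over 5 tumors), against 0.147 ± 0.0578 in the 4 non-responders and 0.210 ± 0.0441 in the 5 control IgG tumors. On the TPM scale the means were 2.54 ± 0.575, 0.688 ± 0.336, and 0.994 ± 0.199. Ccl17 rose by 1.69 ± 0.32 (log2 fold change ± SE) in responders relative to non-responders (edgeR adjusted p = 0.0102) and by 1.19 ± 0.29 relative to control IgG tumors (adjusted p = 0.0146). Since Ccl17 passed the filter through the responders, where it was high, it was also read in the fit without a filter, in which the adjusted p was 0.0154 and 0.0345. These values rest on few fragments: 101 expected counts in the 5 responders together (exact Poisson 95% interval 82.3 to 123, counting error only), 22 in the 4 non-responders (13.8 to 33.3), and 43 in the 5 control IgG tumors (31.1 to 57.9).

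Ccl22, which encodes the second ligand of CCR4, was also higher in responders than in non-responders. Ccl22 was at 3.40 CPM in 24L, 2.74 in 26R, 3.41 in 30L, 2.78 in 30R, and 1.94 in 35L among responders. Non-responders had 1.44 CPM in 29L, 1.48 in 32R, 1.16 in 33L, and 0.919 in 33R. Among control IgG tumors, 14L and 14R had 2.30 and 2.54 CPM, and 16R, 17R, and 20R had 1.13, 1.64, and 1.19. All 5 responders exceeded all 4 non-responders, while both tumors of control mouse 14 were above responder 35L. Ccl22 rose by 1.18 ± 0.27 on the log2 scale in responders relative to non-responders (edgeR adjusted p = 0.0190). The difference from control IgG tumors was 0.70 ± 0.25 with an adjusted p of 0.0802, and it did not pass. It did pass in 3 of 11 alternative fits (DESeq2, 1 tumor per mouse, and log2(TPM + 1), with adjusted p from 0.0320) and without control tumor 14R (adjusted p = 0.0382).

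Ccl22 gave more fragments than Ccl17 in every tumor, with 4.95 to 7.35 Ccl22 counts for each Ccl17 count in responders, 5.12 to 12.8 in non-responders, and 5.38 to 10.1 in control IgG tumors. The Ccl22 transcript is longer, at 2216 bases against 514 for Ccl17. TPM divides by effective length, for which the short Ccl17 transcript is reduced by a larger share. The ratio of Ccl22 to Ccl17 in TPM was 0.608 to 0.926 in responders, 0.623 to 1.55 in non-responders, and 0.660 to 1.28 in control IgG tumors. Ccl17 was thus above Ccl22 in TPM in each of the 5 responders. It was on either side of Ccl22 in the other groups, whose ranges overlap that of responders. This order rests on the effective length: by the full lengths, Ccl22 would be above Ccl17 in each responder. Effective length depends on fragment length, which differed between responders and non-responders. As a share of the summed level of the 6 dendritic cell markers, Ccl17 was 0.876% to 1.85% in responders, 0.404% to 0.776% in non-responders, and 0.524% to 0.995% in control IgG tumors. The same share was 3.91% to 6.79% for Ccl22 in non-responders and 5.57% to 9.65% in responders, with overlap.

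The receptors of these pathways are Ccr4, for CCL17 and CCL22, and Ccr7, for CCL19 and CCL21. Ccr4 had counts in every tumor, but very few. Each non-responder had 1 or 2 counts and control IgG tumor 14L had 2, below the 3 counts taken as detectable. Responders had 0.131 to 0.397 CPM, with the highest values, 0.370 and 0.397, in 30L and 30R of 1 mouse and 0.131 to 0.175 in the other 3 tumors. Control IgG tumors had 0.0568 to 0.158 CPM and non-responders 0.0232 to 0.0634. No responder overlapped a non-responder. The counts behind these values were 53 in responders (exact Poisson 95% interval 39.7 to 69.3), 5 in non-responders (1.62 to 11.7), and 22 in control IgG tumors (13.8 to 33.3). Tested as a single value over tumors, Ccr4 CPM differed between responders and non-responders (exact permutation test, two-sided, with p = 0.0159, which is the smallest that 5 against 4 tumors can give), between responders and control IgG tumors (exact permutation p = 0.0397), and between non-responders and control IgG tumors (exact permutation p = 0.0317). Each of the 3 had a Benjamini-Hochberg adjusted p of 0.0397 over the 3 comparisons. These tests took tumors of 1 mouse as separate. With 1 mean value per mouse the exact permutation p was 0.0571 in each comparison. That is the smallest that 4 against 3 mice can give, so the comparisons with non-responders could not pass. Responders against control IgG tumors, with 4 against 4 mice and a smallest possible p of 0.0286, did not pass. In the edgeR fit without a filter on low counts, the adjusted p of Ccr4 was 0.0141 for responders against non-responders, 0.140 for responders against control IgG tumors, and 0.836 for non-responders against control IgG tumors. T cells carry Ccr4. Of 9 T cell genes, 7 were called higher in responders than in non-responders, where 5.08% of all genes tested were. Their summed levels were 60.0 to 112 CPM in responders, 35.1 to 41.6 in non-responders, and 27.4 to 56.3 in control IgG tumors. In responders 24L, 26R, 30L, 30R, and 35L these sums were 112, 60.0, 73.9, 77.8, and 74.5 CPM. Ccr4 was at 0.162, 0.175, 0.370, 0.397, and 0.131 CPM in the same order, on 6 to 20 counts. Between non-responders and control IgG tumors, 0 of the 9 T cell genes were called, as were 0.00% of all genes tested. Foxp3, the transcription factor that defines regulatory T cells, was 1.70 ± 0.645 CPM in responders and 0.610 ± 0.134 in non-responders (log2 fold change 1.47, edgeR adjusted p = 0.0224), and was the only gene called of 6 regulatory T cell markers (median log2 difference 0.60). Of 4 type 2 helper T cell genes tested, 0 were called (median 0.68). The part of T cells in the level of Ccr4 was not tested.

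Ccr7 was at 6.82 CPM in 24L, 4.17 in 26R, 5.34 in 30L, 3.95 in 30R, and 3.73 in 35L among responders. It was at 2.37, 2.57, 2.49, and 2.19 CPM in non-responders 29L, 32R, 33L, and 33R, a narrow spread. Control IgG tumors ranged from 2.03 CPM in 20R to 3.89 in 14L. Responders were separate from non-responders and, apart from 35L below 14L, from control IgG tumors. Ccr7 rose by 0.996 ± 0.22 on the log2 scale relative to non-responders (edgeR adjusted p = 0.0158) and by 0.70 ± 0.20 relative to control IgG tumors (adjusted p = 0.0323). The second call was lost in 5 of the 14 fits without 1 tumor (16R, 17R, 20R, 24L, or 30L, with adjusted p up to 0.0992). Naive and central memory T cells also carry Ccr7. Of 5 marker genes of these cells, 2 were called higher in responders than in non-responders, where 5.08% of all genes tested were. The 2 were Tcf7 (log2 fold change 0.97) and Klf2 (0.60), while Lef1, another of the 5 marker genes, was at -0.53 and not called. The summed levels of the 5 marker genes were 105.0 to 178.8 CPM in responders, 88.2 to 105.3 in non-responders, and 83.5 to 98.7 in control IgG tumors. Responders and non-responders thus overlapped, and the part of these T cells in the level of Ccr7 was not tested. As a share of the dendritic cell markers, Ccr7 was 9.36% to 17.7% in responders, 8.54% to 11.8% in non-responders, and 7.51% to 12.7% in control IgG tumors, with overlap between all groups.

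Cd209a, which encodes a C-type lectin of monocyte-derived and type 2 dendritic cells, was the most even gene among responders of those that were higher. Responders had 2.04, 1.63, 1.66, 2.07, and 2.01 CPM in 24L, 26R, 30L, 30R, and 35L. Non-responders 29L, 32R, and 33L had 0.897, 0.718, and 0.765 CPM, and 33R had 1.62. Control IgG tumors had 0.617 CPM in 20R to 1.51 in 14L. All 5 responders were above all 9 other tumors, although 26R (1.63) was only just above non-responder 33R (1.62). Cd209a rose by 0.92 ± 0.26 relative to control IgG tumors (edgeR adjusted p = 0.0318), but did not pass in 7 of the 14 fits that left out 1 tumor (14R, 16R, 17R, 20R, 24L, 30R, or 35L, with adjusted p up to 0.0843). Relative to non-responders the difference was 0.92 ± 0.28 and the adjusted p was 0.0512, which did not pass, although it passed in 7 of 11 alternative fits, DESeq2 among them (range of adjusted p 0.00709 to 0.0829), and in 3 of the 14 fits without 1 tumor. Of 8 tested markers of type 2 and monocyte-derived dendritic cells, 3 were called higher in responders than in non-responders, where 5.08% of all genes tested were. They were Mgl2 (1.29), Clec10a (0.77), and Sirpa (0.50), and the other 5 were not called. Mgl2 was not higher in responders than in control IgG tumors (0.06, edgeR adjusted p = 0.910). The 5 tested relatives of Cd209a (Cd209b, Cd209d, Cd209e, Cd209f, and Cd209g) gave 0 calls in any comparison. Cd209f and Cd209g, the most abundant of these, had log2 differences of -0.06 and 0.09 between responders and non-responders and of -1.28 (adjusted p = 0.0705) and -0.95 (adjusted p = 0.218) between responders and control IgG tumors. The expected counts of Cd209a were whole in all tumors.

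Lamp3, which encodes a lysosomal membrane protein, was at 0 in 11 of 14 tumors. It had 0.0507 CPM in control IgG tumor 20R and 0.0199 and 0.0218 CPM in responders 30R and 35L. These 3 tumors held 4.22 expected counts together, and the other 3 responders had none, so no difference in Lamp3 was detectable at this depth. With so few counts, Lamp3 says nothing here about the presence of mature dendritic cells. The list is referred to by its genes and not as a measure of those cells.

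Fscn1, which encodes the actin-bundling protein fascin of dendritic cell protrusions and of many carcinoma cells, did not pass the test in any comparison over all 14 tumors. It was at 121 to 134 CPM in responders, 117 to 173 in non-responders, and 139 to 151 in control IgG tumors. Every responder was below every control IgG tumor, as was the case for 6.72% of all genes tested, while the range of non-responders covered that of responders. The log2 difference was -0.24 ± 0.10 relative to non-responders (edgeR adjusted p = 0.124) and -0.21 ± 0.09 relative to control IgG tumors (adjusted p = 0.163), and neither passed, while the latter passed where only these 2 groups were fitted (adjusted p = 0.0231). On the log2(TPM + 1) scale the first of these was 0.08 (adjusted p = 0.694), where the median of all genes was also moved, to 0.17. Without non-responder 29L, the lowest of its group, the difference on counts was -0.34 and passed (adjusted p = 0.0218).

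Cd83, a surface protein of activated dendritic cells and B cells, was at 5.05 to 7.63 CPM in responders, 4.33 to 7.19 in non-responders, and 6.73 to 9.83 in control IgG tumors. Responders and non-responders overlapped, and control IgG tumors had the highest mean, 8.02 ± 1.23 CPM (SD, n = 5) against 6.36 ± 1.25 (n = 5) and 5.31 ± 1.28 (n = 4). The log2 difference was 0.26 ± 0.18 between responders and non-responders (edgeR adjusted p = 0.369) and -0.60 ± 0.18 between non-responders and control IgG tumors (unadjusted p = 0.0054, edgeR adjusted p = 0.931). Relb, a transcription factor of the noncanonical NF-kB pathway that is required for dendritic cell maturation, was at 36.5 to 53.4 CPM in responders, 41.2 to 45.6 in non-responders, and 46.1 to 55.5 in control IgG tumors. Its log2 difference between responders and non-responders was 0.03 ± 0.10 (adjusted p = 0.864). The responder range extended past the non-responder range on both sides.

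Socs2, a feedback inhibitor induced by STAT5 and STAT6 signals, was at 7.35 to 9.44 CPM in responders, 9.13 to 13.8 in non-responders, and 7.60 to 15.9 in control IgG tumors. The log2 difference was -0.36 ± 0.20 relative to non-responders (edgeR adjusted p = 0.259) and -0.51 ± 0.19 relative to control IgG tumors (adjusted p = 0.0899), and neither passed. Control IgG tumors varied most, with 14L and 14R at 9.36 and 7.60 CPM and 16R and 20R at 14.9 and 15.9.

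**Figure D2:**
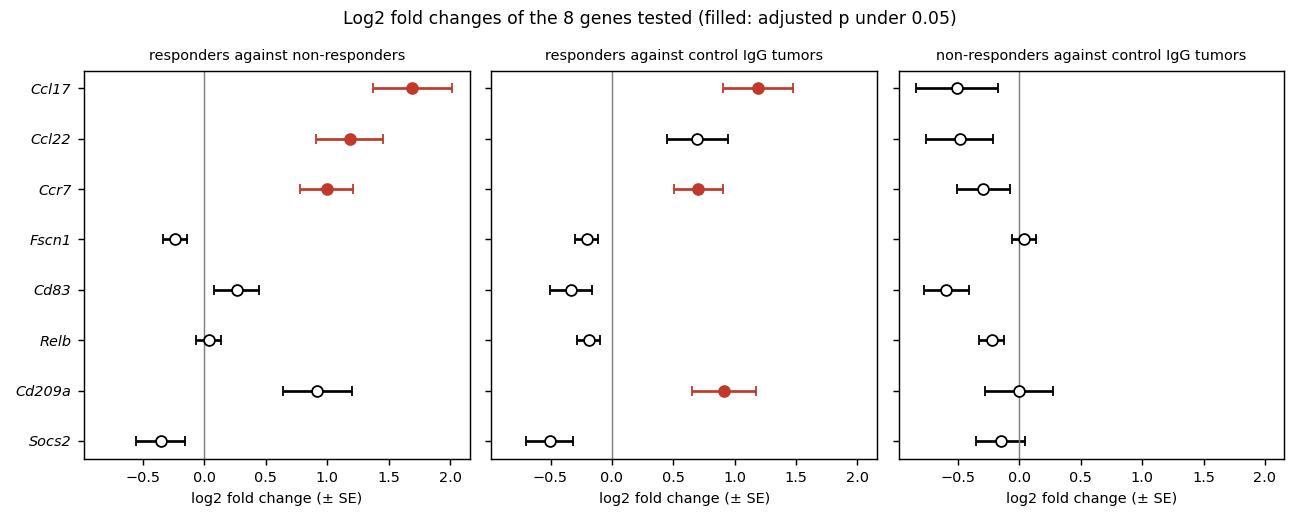
Log2 fold change ± SE (x axis) of the 8 genes tested (y axis) in the 3 comparisons, with filled red points for an edgeR adjusted p under 0.05. Ccl17, Ccl22, and Ccr7 are filled against non-responders, Ccl17, Ccr7, and Cd209a against control IgG tumors, and no gene for non-responders against control IgG tumors.

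Non-responders received the same antibody as responders, and were also compared with control IgG tumors. They were classed by a large final size relative to the control IgG cohort, whereas control IgG tumors were not classed by size. This comparison therefore does not measure the effect of treatment. The same limit holds for responders against control IgG tumors, since responders were classed by a small final size. Between non-responders and control IgG tumors, none of the 8 genes tested passed (lowest edgeR adjusted p = 0.931), and 7 of 8 log2 differences were below 0. In the same comparison 0 of 16287 genes passed, 0.00%, 758 (4.65%) had an unadjusted p under 0.05, and DESeq2 called 16. At an unadjusted p under 0.05 were 2 of the 8 genes, Cd83 and Relb (log2 difference -0.22 ± 0.10, unadjusted p = 0.0450). Relb in non-responders lay below every control IgG tumor, as did 0.534% of all genes tested. The log2 differences of Ccl17, Ccl22, and Ccr7 were -0.50 ± 0.33, -0.49 ± 0.27, and -0.29 ± 0.22, and that of Cd209a was -0.0046 ± 0.28. The comparisons with control IgG share those 5 tumors, and the 2 comparisons of responders share the 5 responders.

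Counted by tumor, 24L, 26R, 30L, and 30R were above every control IgG tumor for each of Ccl17, Ccl22, Ccr7, and Cd209a. Responder 35L was above them for Ccl17 and Cd209a only. Among non-responders, 33R exceeded them for 1 of these genes, Cd209a, and 29L, 32R, and 33L for 0. These 4 genes were picked after their values were seen.

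Both flanks were sequenced in 3 mice, 1 in each group. Ccl17 was 0.227 and 0.256 CPM in 14L and 14R and 0.555 and 0.536 in 30L and 30R, but 0.227 and 0.0950 in 33L and 33R, which differed by 0.93 on the log2 scale, on 8 and 3 counts. For Ccl22 the log2 difference between flanks was 0.14 in mouse 14, 0.29 in mouse 30, and 0.32 in mouse 33, each below the median difference between tumors of different mice of the group (0.62, 0.31, and 0.34). Cd209a differed by 1.03 between the flanks of mouse 33, by 0.59 in mouse 14, and by 0.30 in mouse 30, where Cd83 differed most (0.59). Over the 8 genes tested, the flanks were closer than that median for 7 in mouse 14, 4 in mouse 30, and 2 in mouse 33. With 1 mouse per group, these differences were not tested.

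Which of the genes varied together was examined after removal of the group means, over 14 tumors that share depth and tissue composition as possible sources of variation, and correlations are given as a description. The highest Pearson r of log2 CPM was between Ccr7 and Relb (0.88), followed by Ccl22 and Ccr7 (0.80) and Ccl22 and Relb (0.77). Ccl17 and Ccl22 had an r of 0.56. Relb thus followed Ccr7 and Ccl22 among tumors of a group although its difference between responders and non-responders did not pass the test. Cd209a and Cd83 were apart from these genes, with an r of 0.04 and 0.03 to Ccl22 and of 0.51 to each other. Socs2 was negatively correlated with Ccr7 (-0.55) and Ccl22 (-0.53), and Fscn1 had an r of 0.08 or 0.05 to them.

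**Figure D3:**
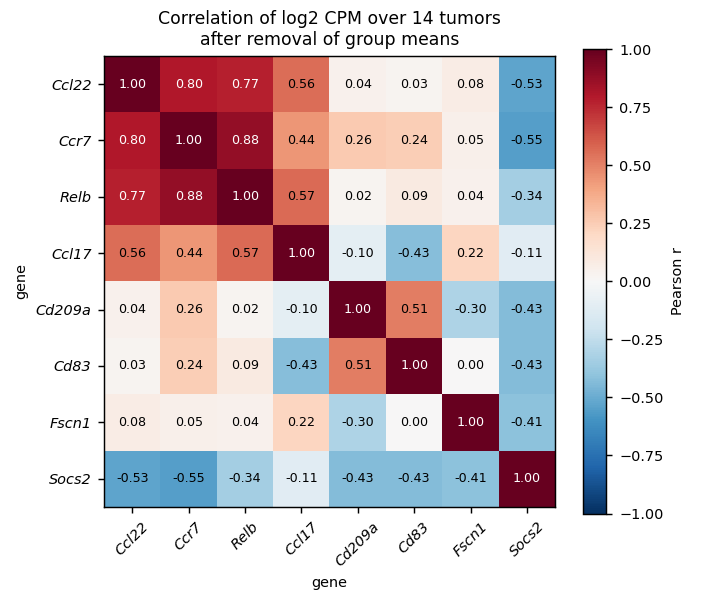
Pearson r of log2 CPM between the 8 genes tested (both axes), over 14 tumors after the mean of each group was subtracted; color and number give r. Ccl22, Ccr7, and Relb form the block of highest values, 0.77 to 0.88, and Socs2 is below 0 with every other gene.

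The genes most like Ccl22 among 13359 with a mean of at least 1 CPM were Apobec3 (r = 0.88), Tapbp (0.88), Timd4 (0.88), Cxcl9 (0.88), and Fam78a (0.87). Tapbp encodes tapasin, which loads peptides on MHC class I, Cxcl9 is an interferon-gamma-induced chemokine for T cells, and Timd4 encodes a phosphatidylserine receptor of macrophages. All 5 rose in responders relative to non-responders, by 0.33 for Apobec3 (edgeR adjusted p = 0.0321), 0.84 for Tapbp, 1.70 for Timd4, 1.38 for Cxcl9, and 0.55 for Fam78a. Ccr7 stood at rank 44 and Relb at rank 74 by this measure. The genes most like Ccl17 were 5430430B14Rik (r = 0.82), Sfmbt1 (0.82), F5 (0.81), Arhgap39 (0.81), and Snx18 (0.80), and 0 of these 5 passed between responders and non-responders. For Ccl17, Relb stood at rank 359, Ccl22 at rank 391, and Ccr7 at rank 1118, and its low counts limit any such correlation.

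Genes around the chemokine axis were read from lists of related genes, beside a median log2 difference of 0.01 over all genes for responders against non-responders. Of 9 tested chemokine partners, meaning ligands and receptors related to CCL17, CCL22, and CCR7, 2 were called higher in responders than in non-responders and 0 lower, with a median of 0.44. Over all genes tested 5.08% were called higher in this comparison, which is the share to set beside the counts of the lists that follow, and a single call among 12 or 13 genes is close to it. The 2 were Cxcr6, a receptor of effector T cells (log2 fold change 1.13 ± 0.27, edgeR adjusted p = 0.0215), and Cx3cl1, the gene between Ccl22 and Ccl17 (1.09 ± 0.24, adjusted p = 0.0173), at 3.60 ± 1.16 CPM in responders (SD, n = 5), 1.69 ± 0.459 in non-responders (n = 4), and 1.55 ± 0.239 in control IgG tumors (n = 5). The most abundant partners that did not pass were Ccl8, a ligand of CCR8 in mice (0.65, adjusted p = 0.126), and Cxcl16, the ligand of CXCR6 (0.01, adjusted p = 0.964). Ccl19 and Ccl21a, the ligands of CCR7, were each listed under more than 1 Ensembl gene with near-identical copies, among which fragments could be divided. The only copy of these that was tested, 1 of Ccl21a, had a log2 difference of 0.31 ± 0.84 (adjusted p = 0.849).

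The mature dendritic cell program held 34 tested genes beside the 10, of which 9 were called higher and 0 lower in responders than in non-responders, with a median of 0.42. Pdcd1lg2 (PD-L2, 1.94 ± 0.49, edgeR adjusted p = 0.0265) and Cd274 (PD-L1, 0.87 ± 0.24, adjusted p = 0.0354) are ligands of the receptor that the antibody blocks. Stat4 (1.06), a transcription factor of interleukin-12 signaling, and Icam1 (0.88), an adhesion molecule, were the others with the largest changes. Bcl2l1 and Tmem123, the most abundant genes that did not pass, had differences of 0.17 and 0.10. Against control IgG tumors 11 of 34 were called higher and 1 lower, where 7.88% of all genes were called higher.

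Signaling genes around Relb and Socs2 were read in the same way. Of 12 tested genes of the noncanonical NF-kB pathway, 1 was called higher in responders than in non-responders, the lymphotoxin gene Ltb (1.01 ± 0.23, edgeR adjusted p = 0.0180), and 0 lower (median 0.22). Nfkb2, the partner of RelB, had a difference of 0.21 (adjusted p = 0.134) and the receptor gene Ltbr of -0.15 (adjusted p = 0.345). Of 13 canonical NF-kB genes, 1 was called, the inhibitor Tnfaip3 (0.63 ± 0.17, adjusted p = 0.0342), and Nfkb1 (0.17) and Nfkbia (0.27) were not (median 0.20). Of 23 tested genes of the SOCS, STAT5, and STAT6 list, 7 were called higher and 0 lower (median 0.38). Of these, Irf4, a transcription factor that type 2 dendritic cells need, changed most (1.25 ± 0.28, adjusted p = 0.0175), followed by Cish (0.80), a STAT5-induced relative of Socs2, Il2rg (0.56), the common cytokine receptor chain, and Csf2rb (0.56, adjusted p = 0.0498), which shares sequence with Csf2rb2, so that its counts are uncertain. Stat6 (0.07) and Socs5 (-0.09) did not pass. Of 10 tested genes of fascin and actin bundling, 2 were called higher, Enah (0.47) and Lcp1 (0.47), which encodes the leukocyte bundling protein plastin-2, while Actn4 (0.18) and Ezr (0.09) were not (median 0.13).

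Dendritic cell markers moved in the same comparison. Of the 6 pan-dendritic markers, 2 were called higher in responders than in non-responders, Flt3 (1.15) and Itgax (0.92), and of 9 markers of type 1 dendritic cells 6 were, led by Xcr1 (1.72 ± 0.25, edgeR adjusted p = 0.00475) and Clec9a (1.53 ± 0.23, adjusted p = 0.00475). Type 1 dendritic cells are the subset that presents antigen to CD8 T cells. Of 9 macrophage markers, 1 was called higher. Of 3 markers of Langerhans cells, which lie in the epidermis, 0 were called (median 0.09). Cd207, 1 of these markers, was at 0.455 ± 0.158 CPM in responders (SD, n = 5), 0.601 ± 0.151 in non-responders (n = 4), and 0.578 ± 0.350 in control IgG tumors (n = 5). The part of these cells in the levels of Ccl17 and Ccl22 was not tested.

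**Figure D4:**
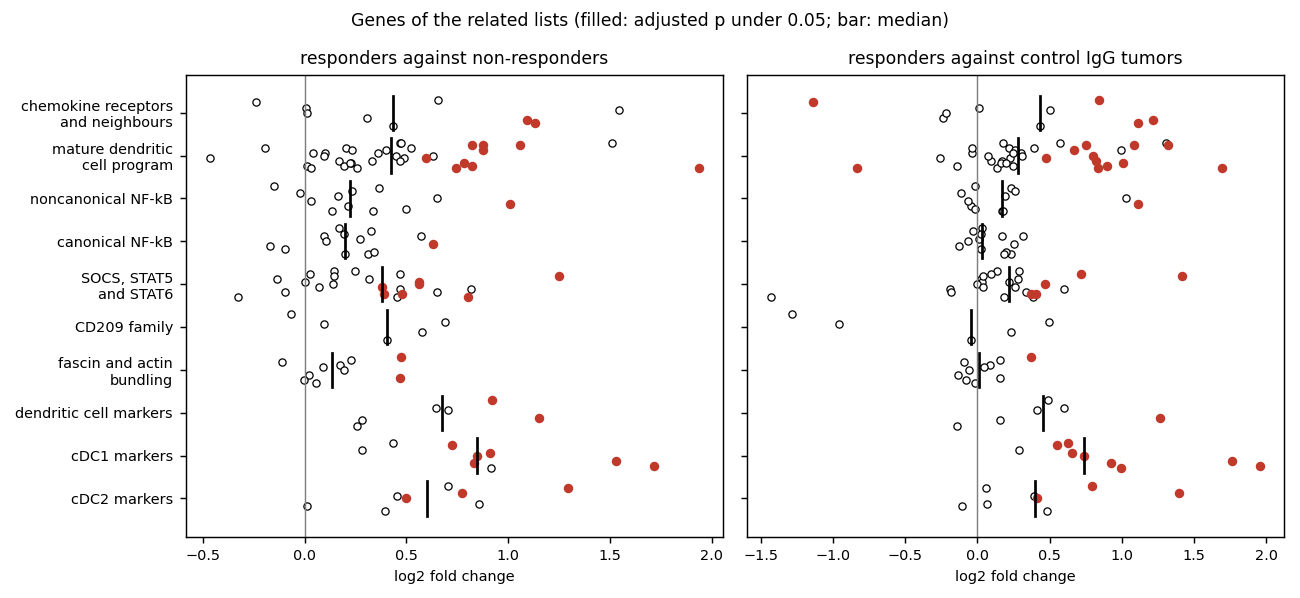
Log2 fold changes (x axis) of the genes of 7 related lists and 3 marker lists (y axis) for responders against non-responders and against control IgG tumors; filled red points have an edgeR adjusted p under 0.05 and bars mark list medians. For responders against non-responders all filled points in these lists lie above 0, with cDC1 markers farthest to the right by their median of 0.85.

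The calls on the chemokine axis were lost without mouse 30, whose 2 tumors are 2 of the 5 responders. Mice 14 and 33, which also gave 2 tumors, were not left out whole. Whether the loss came from mouse 30 itself or from fewer responders was not tested. Without that mouse, which left 3 responders, the log2 fold changes against non-responders were 1.56 for Ccl17, 1.10 for Ccl22, and 0.96 for Ccr7, and the edgeR adjusted p was 0.0631, 0.0929, and 0.0617, while the count of all genes called fell from 1612 to 197. With 1 tumor per mouse the log2 fold changes were 1.52, 1.08, and 1.03 and the adjusted p was 0.0517, 0.0579, and 0.0502, and Cd209a passed (1.22, adjusted p = 0.0430). Leaving out 1 tumor at a time kept Ccl17 and Ccr7 past the threshold against non-responders in all 14 fits, and Ccl22 in 12, the exceptions being 24L (adjusted p = 0.0522) and 33R (adjusted p = 0.0523). With the level of the epidermis genes as a covariate, Ccl17, Ccl22, and Ccr7 passed and Cd209a did too (adjusted p = 0.0400).

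**Figure D5:**
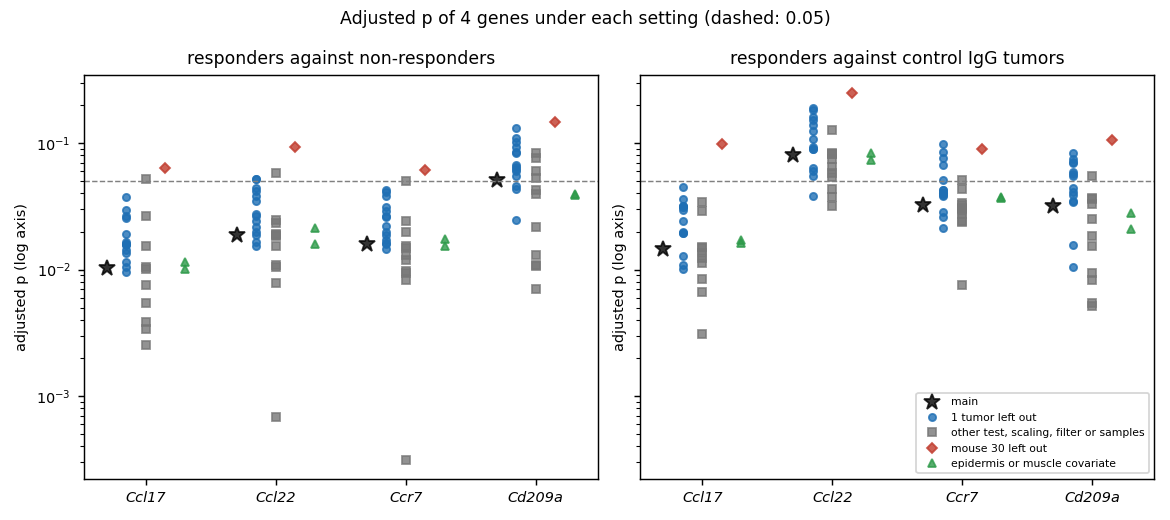
Adjusted p (y axis, log scale) of Ccl17, Ccl22, Ccr7, and Cd209a (x axis) under each setting, for responders against non-responders (left) and against control IgG tumors (right); the dashed line marks 0.05, and the settings are named in the key. Ccl17, Ccl22, and Ccr7 lie below the line at left except for the values given in the text, and all 4 genes lie above it without mouse 30.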

How the data were processed

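Bulk tumor RNA was enriched for poly(A) mRNA. Per the labels, STAR, RSEM, and mm10 were used by the authors to align paired reads and quantify genes. In the deposited tables, an expected count is an RSEM estimate of the fragments of a gene, without normalization. Deposited TPM values divide these by effective length and scale them to a common total, and deposited FPKM values were not used. Groups came from the labels. Ensembl identifiers were matched to symbols and mm10 positions in GENCODE (53706 of 53801), and promoter windows came from RefSeq (GRCm38.p6).

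Rounded expected counts of all 14 tumors entered 1 fit without covariates in edgeR 4.0.16 under R 4.3.3 (TMM, filterByExpr, quasi-likelihood test), with Benjamini-Hochberg adjustment over 16287 genes and a threshold of 0.05. Tumors of 1 mouse counted as separate samples, so that p-values measure the spread between tumors. Log2 CPM used a prior count of 2. Totals were 33237744 to 48481461 per tumor, and no 2 tumors of a group agreed within sampling noise (lowest chi-square per gene 20.5). Non-responder 33R stood farthest from its group, at 128 to 186 against the other non-responders. The highest value for any other pair within a group was 87.4 (14R and 16R). Alternatives were DESeq2 1.42.0, limma 3.58.1 (voom with mouse as a random effect, and log2 TPM with a pseudocount of 1 or 0.1), other scalings, filters, sample sets, and a gene length offset. The genes and lists were chosen with earlier results of these data known. Named are the 10 genes, up to 4 called genes with the largest change and 2 abundant genes not called from each related list, the 5 genes most correlated with each chemokine, and markers where a result needed them. A gene of the naive and memory T cell markers is not reported here.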

Additional observations from a re-analysis of the deposited data

Results flagged for a closer look

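A tumor stood far from the others of its group in 2 of 30 combinations of gene and group, judged by the gap to the nearest tumor as a share of the group's range, and chance alone gives about 1 in 20. Ccr4 in non-responder 33R was 0.0634 CPM, where the other 3 non-responders had 0.0232 to 0.0283. Lamp3 in control IgG tumor 20R was 0.0507 CPM, where the other 4 control IgG tumors had 0. Both values are at or below 3 counts per tumor, the smallest number taken as detectable.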

How the results depend on the processing

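For responders against non-responders, 1612 genes and 3 of the 10 were called. The number of all genes called was 2594 with DESeq2, 2973 with voom where mouse was a random effect, 689 with only the 2 groups compared, 520 with 1 tumor per mouse, and, in settings chosen after seeing the data, 197 without mouse 30 and 2513 with an epidermis covariate. The correlation within mouse in the voom fit was estimated as -0.282, from 3 mice with both flanks, so that fit took tumors of 1 mouse as less alike than others. Of the 10 genes, 1 was called with 1 tumor per mouse (Cd209a) and 0 without mouse 30. Leaving out 1 tumor at a time gave 569 (without 24L) to 1978 (without 29L) genes, and also 686 without 30R, 615 without 32R, and 793 without 33R. Against control IgG tumors, 2147 genes and 3 of the 10 were called. Without mouse 30 these were 922 and 0, and of the 10 genes, 1 was called without a filter on low counts (Ccl17) and 5 with 1 tumor per mouse (Ccl17, Ccl22, Ccr7, Cd209a, and Socs2, the last lower). Leaving out 1 tumor gave 1190 (20R) to 3385 (33R) genes, with 1192 without 24L and 1387 without 30R, and 1 to 4 of the 10, with 1 of them, Ccl17, without 16R, 17R, 20R, or 24L. For non-responders against control IgG tumors 0 genes were called, but 16 by DESeq2, 3 without a filter, 6 with the epidermis covariate, and 0 to 5 with 1 tumor left out (5 without 35L). In that comparison 0 of the 10 were called in any of the fits across all genes. For Ccr4, the exact permutation tests passed over tumors in all 3 comparisons, adjusted over these 3 alone. They passed in 0 of 3 with 1 value per mouse, a setting chosen after seeing the data. In that setting the comparisons with non-responders had too few mice to pass.

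Directions changed for differences that had not passed. The log2 difference of Fscn1 was 0.078 (log2(TPM + 1)) and 0.079 (log2(TPM + 0.1)) for responders against non-responders, and -0.14 on both TPM scales for non-responders against control IgG tumors, where leaving out 1 tumor gave -0.052 to 0.14. For Relb, leaving out 1 tumor gave -0.041 to 0.097 for responders against non-responders. For Cd209a, non-responders against control IgG tumors gave 0.010 with upper quartile scaling, 0.0055 with a skeletal muscle covariate, and -0.34 to 0.19 with 1 tumor left out. The cause of these changes was not tested, other than that fewer tumors or genes entered some fits. The TPM scales moved the median of all genes by 0.17 and 0.24 between responders and non-responders. Ccl17 gave no value where a mean of 50 counts was required. No paired analysis was possible because no tumor number was shared between groups. Depth limits Ccl17, Ccr4, and Lamp3, which had at most 27, 20, and 2.22 counts in a tumor.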
